A study of Rattus norvegicus with 6 samples.

Results

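The 6 genes described here carry the life cycle of GABA, the main inhibitory transmitter of the striatum: Gad1 and Gad2 (synthesis), Slc32a1 (loading into vesicles), Slc6a11 (uptake from outside the cell), and Abat and Aldh5a1 (breakdown). They were chosen by symbol, as a list made with earlier results of these data known, and all 6 of 6 were found once each among the 32883 features of the files. UMIs (unique molecular identifiers, each standing for 1 captured transcript) were counted in single nuclei of the nucleus accumbens shell, a part of the ventral striatum that takes part in motivated behaviour, from Long-Evans rats. Only the labels of female pool 3 and male pool 1 give a strain. There were 6 libraries, 3 female and 3 male, each a pool of 4 animals of 1 sex aged 90 to 100 days, so tests below measure the spread between pools and not between animals. The labels name no allele, transgene or drug for any pool, and all animals had been weaned on day 22.

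GABA is made from glutamate by glutamate decarboxylase, whose 2 forms are the products of Gad1 and Gad2, and is packed into synaptic vesicles by the vesicular transporter that Slc32a1 encodes. After release it is taken back up by membrane transporters, among them the Slc6a11 product, best known from astrocytes. Inside the cell, the Abat product (GABA transaminase) turns GABA into succinic semialdehyde, and the Aldh5a1 product (succinic semialdehyde dehydrogenase) turns that into succinate for the citric acid cycle. The output cells of the striatum, medium spiny neurons (MSN), are themselves GABAergic, as are most of its interneurons.

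After filtering, 34218 nuclei remained, between 2762 and 14291 per library, with 3061 to 4812 median UMIs per nucleus. They fell into 29 clusters, made without the 6 genes, and were named from marker genes only. The D1 MSN-like class (3696 nuclei) is cluster 0 alone, with 3 of its 6 markers (Drd1, Pdyn, Isl1) higher. Its 10 leading genes included Drd3, a marker of another list, and none of its own, so every comparison with it is a comparison with that cluster. D2 MSN-like nuclei (3414; Drd2, Adora2a, Penk, Gpr6) are cluster 2 alone. Other named classes were oligodendrocyte-like (3469), astrocyte-like (2475), glutamatergic-like (2089, almost all in female pool 3 and male pool 1), OPC-like (oligodendrocyte precursors, 898), microglia-like (432), Sst/Npy interneuron-like (404), endothelial and mural-like (395) and cholinergic-like (249) nuclei. Interneurons of the Pvalb/Pthlh type could not be named, because fewer than 3 of their markers were detected together. Cluster 14 (891 nuclei, led by Il1rapl2, Egfr, Kit and Kcnip1) is kept as a number and was chosen for comparison after the data were seen. Cluster 12 (1204 nuclei) had 3 of 3 markers of the Drd3 MSN list (Drd3, Rreb1, Foxp2) higher. It is also kept as a number, an exception to the naming rule. The reason noted was a level of the MSN marker Pde10a near that of non-MSN clusters, for which no value is given here. Its level of the whole MSN marker list was 35.3% of that in D1 and D2 MSN-like nuclei. Clusters 6, 10, 11 and 14 had 11.95% to 17.6%. The wording of the labels splits the libraries into set A (female pool 3, male pool 1), whose labels give a strain, and set B (the other 4). The labels do not say what else set them apart. Barcodes with at least 5% mitochondrial UMIs, which were removed, made up 1.55% and 2.28% of the set A libraries and 13.1% to 40.7% of the set B libraries. The deposited matrices held 13342828 to 109315226 UMIs per library, the set A libraries being the deepest. Pairs of libraries shared 3 to 52 barcodes.

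Levels are given as CPM, the UMIs of a gene per 1000000 UMIs of the class in 1 library, with mean and SD over libraries holding at least 20 nuclei of the class. The reads come from the 3′ end of transcripts and were not scaled by length, so CPM of different genes are not ranked against each other. Where values of single libraries are listed, they run from pool 1 to pool 3 of each sex.

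The proximal promoters of Gad1, Gad2 and Slc6a11 are shown because the main results below concern these genes, though no result uses the promoters. Those results are the balance of Gad1 and Gad2 among GABA neurons, and Slc6a11 in astrocyte-like nuclei. Each is the 250 bases before the annotated start, from RefSeq on build GRCr8, plus strand. The deposited counts were made on rn6, and no position in the counts was read from these sequences. Entries were found for 5 of the 6 genes, and Abat had none. Capitals mark matches, on either strand, to the TATA motif TATAAA, to CCAAT and to the GC box, GGGCGG.
Gad1, chr3:75777202-75777451: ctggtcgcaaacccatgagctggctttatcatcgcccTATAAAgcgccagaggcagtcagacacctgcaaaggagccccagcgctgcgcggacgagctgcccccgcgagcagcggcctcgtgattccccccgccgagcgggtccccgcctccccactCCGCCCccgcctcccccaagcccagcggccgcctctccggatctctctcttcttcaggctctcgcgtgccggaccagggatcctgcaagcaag
Gad2, chr17:89671468-89671717: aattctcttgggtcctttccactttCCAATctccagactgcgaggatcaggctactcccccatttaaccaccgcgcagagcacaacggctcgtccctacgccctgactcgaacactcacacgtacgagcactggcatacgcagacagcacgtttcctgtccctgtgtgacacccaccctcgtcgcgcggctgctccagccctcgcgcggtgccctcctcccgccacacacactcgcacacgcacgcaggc
Slc6a11, chr4:148853307-148853556: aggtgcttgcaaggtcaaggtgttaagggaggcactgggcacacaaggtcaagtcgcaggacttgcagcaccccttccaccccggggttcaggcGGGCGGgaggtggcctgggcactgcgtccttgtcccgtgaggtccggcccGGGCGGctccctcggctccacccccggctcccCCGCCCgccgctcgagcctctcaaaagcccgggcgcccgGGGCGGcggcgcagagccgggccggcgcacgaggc
The Gad1 window held a TATAAA and a GC box, the Gad2 window a CCAAT alone, and the Slc6a11 window GC boxes at 4 places. Over all 33469 promoters of this length, 12.9% held TATAAA, 34.0% CCAAT and 30.5% a GC box on either strand. GC content was 68.4% for Gad1, 62.0% for Gad2 and 73.6% for Slc6a11, against a median of 51.2% over all promoters, and CpG dinucleotides numbered 23, 22 and 25 against a median of 5. Of the other matched members, the Slc32a1 window (GC content 73.6%) held a CCAAT and a GC box, and the Aldh5a1 window (61.6%) held none of the motifs. These matches describe letters and were not tied to any measured level. In RefSeq, Aldh5a1 overlaps a neighbouring gene, Gpld1, and the other 5 members overlap none, so Aldh5a1 counts could hold reads of Gpld1 if strand was not used.

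Gad1 was high in MSN-like and Sst/Npy interneuron-like nuclei and low in glia. In D1 MSN-like nuclei it measured 367, 361 and 381 CPM in the females and 377, 332 and 338 CPM in the males. In D2 MSN-like nuclei it ran from 398 to 439 CPM with a median of 421 (419 ± 18.8, SD, n = 6), and no D2 value fell under any D1 value. The highest levels were in cluster 14, at 833 ± 134 CPM (n = 6; range 693 to 1009), then in cluster 19 (689 ± 140 CPM), which is led by activity genes such as Fosb, Npas4 and Arc. Cluster 11, led by Chst9, Grm8 and Oprm1, followed at 606 ± 23.4 CPM. Neighbours among these 3 had ranges of mean ± SD that overlapped, and cluster 5 (487 ± 71.0 CPM) lay below cluster 11 with no overlap of these ranges. Below it, each class overlapped in this way with its neighbour in the order.
Gad1 in glia was 61.0 ± 17.8 CPM in astrocyte-like, 66.1 ± 15.0 CPM in OPC-like and 90.2 ± 69.4 CPM in oligodendrocyte-like nuclei (n = 6 each). Female pool 2 set the spread of the last, with 227 CPM against 42.4 to 92.0 CPM in the others. Glutamatergic-like nuclei, neurons of another transmitter, had 62.8 and 52.1 CPM in female pool 3 and male pool 1.

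Gad2 had a similar spread over classes with another order. D1 MSN-like nuclei had 551, 506 and 489 CPM in the females and 467, 513 and 476 CPM in the males. D2 MSN-like nuclei had 608, 580 and 505 CPM in the female and 468, 543 and 537 CPM in the male pools, so the classes overlap between libraries while D2 was higher than D1 within each of the 6. The highest means were in cluster 19 (671 ± 138 CPM), cluster 9 (669 ± 117 CPM), cluster 12 (642 ± 69.3 CPM) and cluster 14 (619 ± 75.2 CPM), each overlapping with its neighbour by mean ± SD. Sst/Npy interneuron-like nuclei had 264 ± 57.0 CPM (n = 6), and its highest library (332 CPM) lay under the lowest MSN-like value (467 CPM). In glia Gad2 was lowest in astrocyte-like nuclei (99.8 ± 29.5 CPM) and reached 186 ± 129 CPM in OPC-like nuclei, where male pool 2 had 415 CPM and female pool 2 had 263 CPM against 89.8 to 130 CPM in the other libraries.

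**Figure D1:**
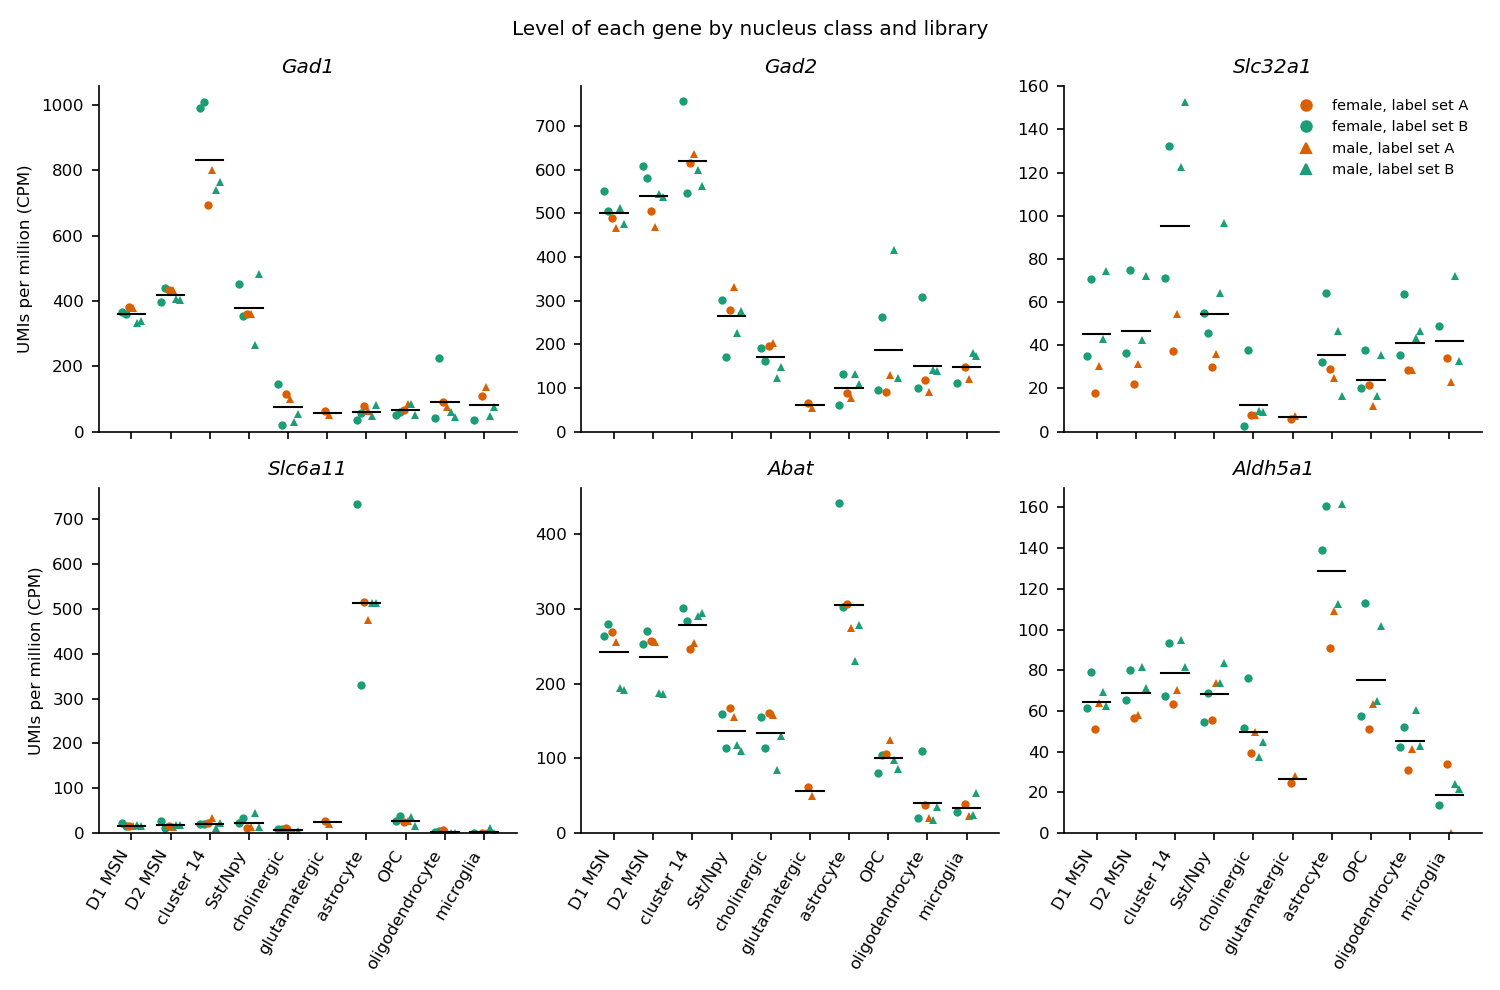
Level of each gene in CPM (UMIs scaled to 1000000 in the class and library, linear axis from 0, each panel with its own scale) by nucleus class; each point is 1 library with at least 10 nuclei of the class, circles are female and triangles male pools, colours are the label sets, and bars are means over the points. Slc6a11 points lie between 330 and 733 CPM in astrocyte-like nuclei and at most at 44.3 CPM in every other class drawn, while Slc32a1 points of the neurons spread by label set and library.

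Slc32a1, which loads GABA into vesicles, varied widely between libraries. D1 MSN-like nuclei had 35.2, 70.7 and 17.9 CPM in the females and 30.4, 42.7 and 74.2 CPM in the males. D2 MSN-like nuclei ordered the libraries alike except that female pool 2 passed male pool 3, with 36.5, 74.8 and 21.8 CPM in the female pools and 31.2, 42.5 and 71.8 CPM in the male pools. Both set A libraries were the lowest in these classes, at a set A mean of 24.2 CPM against 55.7 CPM in set B for D1 MSN-like nuclei. Female pool 2 and male pool 3, the highest, were also the libraries with the most barcodes over the mitochondrial limit (40.7% and 23.9%), and the part of that share in the level was not tested. Cluster 9, which carries no class name, had the highest mean, 118.5 ± 15.7 CPM, with 101 to 139 CPM over the 6 libraries. It is led by AY172581.24, and its leading genes include hemoglobin, ubiquitin and calmodulin genes, Atp5f1e and Cox5b. Cluster 14 followed at 95.1 ± 47.0 CPM, and the ranges of mean ± SD of these clusters overlapped. Next among unnamed clusters were cluster 10 (92.9 CPM), cluster 11 (82.5 CPM) and cluster 6 (70.05 CPM). Below them came cluster 5 (69.7 CPM), cluster 12 (66.2 CPM) and cluster 19 (57.0 CPM). These means also lay above those of D1 and D2 MSN-like nuclei, while those of cluster 8 (45.16 CPM) and cluster 23 (27.6 CPM) did not. Sst/Npy interneuron-like nuclei had 54.5 ± 24.1 CPM (n = 6), with a range that overlapped those of the MSN-like classes. Glutamatergic-like nuclei had 6.02 and 7.17 CPM in female pool 3 and male pool 1, and cholinergic-like nuclei, interneurons of another transmitter, had 6.72 ± 2.83 CPM over the 4 libraries with at least 20 of them. Female pool 2, with 16 cholinergic-like nuclei, had 38.0 CPM (4 UMIs).

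**Figure D2:**
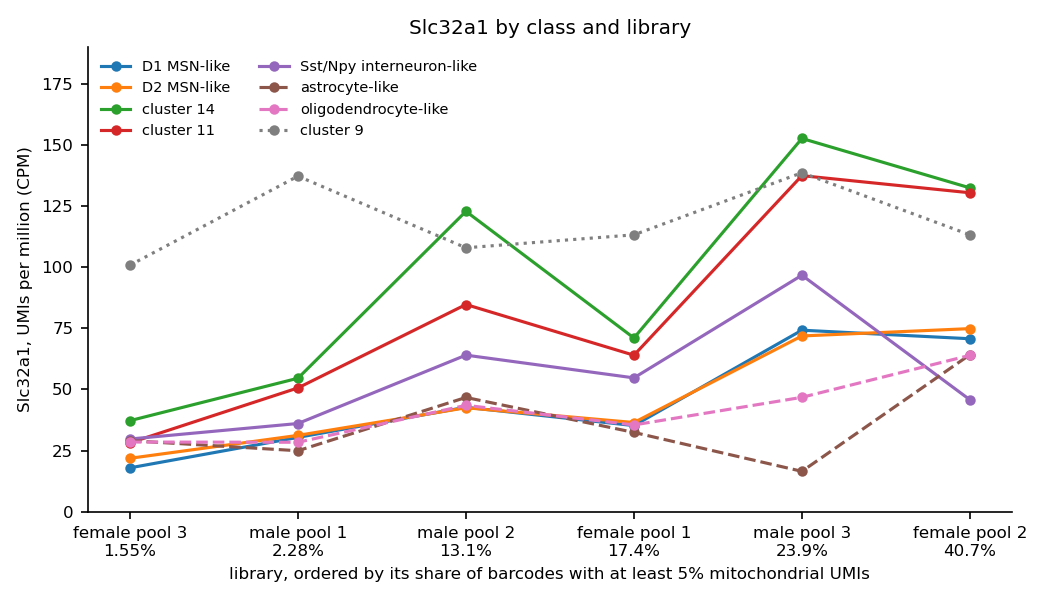
Slc32a1 in CPM (UMIs scaled to 1000000 in the class and library, linear axis from 0) by library for 8 classes, libraries ordered by the percentage of their barcodes with at least 5% mitochondrial UMIs (under each name); each point is 1 class in 1 library. In D1 MSN-like nuclei the level runs from 17.9 CPM in female pool 3 to 74.2 CPM in male pool 3, while cluster 9 stays between 101 and 139 CPM.

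In glia Slc32a1 was 35.6 ± 17.2 CPM in astrocyte-like, 41.1 ± 13.5 CPM in oligodendrocyte-like and 23.9 ± 10.4 CPM in OPC-like nuclei (n = 6 each), against means of 45.2 and 46.5 CPM in D1 and D2 MSN-like nuclei. Per nucleus the counts were apart: 0.254 UMIs in D1 and 0.235 in D2 MSN-like nuclei, against 0.0752 in astrocyte-like and 0.0680 in oligodendrocyte-like nuclei, whose totals were smaller (medians of 2116 and 1712 UMIs against 5945 and 5291). With each nucleus thinned to 1000 UMIs, 4.38% of D1 MSN-like nuclei (95% Wilson interval 3.77 to 5.09%, 3696 nuclei) and 4.00% of oligodendrocyte-like nuclei (3.36 to 4.75%, 3078 nuclei) had a Slc32a1 UMI. Unthinned, the shares were 20.9% and 6.40%. Microglia-like nuclei, which should lack the gene, had 4.33% thinned (2.60 to 7.14%, 323 nuclei, with 109 under 1000 UMIs left out) and 5.79% unthinned at a median of 1325 UMIs. At this depth the interval of D1 MSN-like nuclei overlapped that of microglia-like nuclei, while glutamatergic-like nuclei had 0.480% (0.261 to 0.882%). The shares pool nuclei of libraries that differ in Slc32a1 level and in class sizes. Their intervals cover counting error only, so they do not decide whether MSN-like and microglia-like nuclei differ. Almost all glutamatergic-like nuclei came from set A, where Slc32a1 was lowest in MSN-like nuclei. The other shares are over all 6 libraries, so the contrast with glutamatergic-like nuclei mixes class with label set.

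For the synthesis genes the thinned shares stood apart. A Gad1 UMI was found in 29.5% of D1 (28.1 to 31.0%) and 33.0% of D2 MSN-like nuclei (31.4 to 34.6%), in 48.8% of cluster 14 (45.5 to 52.0%) and in 25.4% of Sst/Npy interneuron-like nuclei (21.4 to 29.8%). Glutamatergic-like nuclei had 4.03% (3.27 to 4.97%) and microglia-like nuclei 8.36% (5.81 to 11.9%), and astrocyte-like nuclei lay between them at 6.13% (5.22 to 7.19%). As glutamatergic-like nuclei were almost all from set A, their share mixes class with label set, here and for Gad2. Endothelial and mural-like nuclei had means of 137 CPM (Gad1), 247 CPM (Gad2) and 70.0 CPM (Slc32a1) over 3 libraries. Thinned, 21.7% of them had a UMI of Gad1 or Gad2, against 19.2% of microglia-like nuclei. Unthinned, the Gad1 shares were 80.8% in D1 MSN-like nuclei at a median of 5945 UMIs, 25.6% in glutamatergic-like nuclei at 9427 and 11.1% in microglia-like nuclei at 1325. Gad2 UMIs were found in 36.5% of thinned D1 MSN-like nuclei (34.9 to 38.0%), 3.70% of glutamatergic-like (2.97 to 4.60%) and 13.0% of microglia-like nuclei (9.77 to 17.1%). The Gad2 shares in OPC-like (12.4%, 10.3 to 14.7%), oligodendrocyte-like (10.5%) and astrocyte-like nuclei (9.35%) lay between those of glutamatergic-like and microglia-like nuclei. Without thinning, 96.6% of D1 and 96.7% of D2 MSN-like nuclei had at least 1 UMI of Gad1 or Gad2, and 73.4% and 74.1% had both. The Wilson intervals cover counting error only.
Gad1 and Slc32a1 were not in 1 ratio across classes: Slc32a1 gave 10.1 UMIs per 100 Gad1 UMIs in D1 MSN-like nuclei and 10.6 in glutamatergic-like nuclei, against 45.7 in oligodendrocyte-like, 48.1 in astrocyte-like and 47.2 in microglia-like nuclei, and 28.6 in cluster 9. The part of free RNA in the glial counts was not tested.

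Slc6a11, a GABA transporter of astrocytes, was highest in astrocyte-like nuclei. There it measured 733, 330 and 516 CPM in the females and 476, 512 and 513 CPM in the males (513 ± 129 CPM, n = 6). The next mean belonged to a mixed cluster that carried astrocyte markers together with many MSN transcripts (127 ± 29.0 CPM over the 3 libraries with at least 20 nuclei), and its range of mean ± SD did not reach that of astrocyte-like nuclei. Named neurons had 16.9 ± 2.52 CPM (D1 MSN-like), 17.5 ± 5.28 CPM (D2 MSN-like) and 23.6 ± 13.2 CPM (Sst/Npy interneuron-like), and OPC-like nuclei had 28.1 ± 8.24 CPM. Oligodendrocyte-like nuclei had 3.16 ± 2.85 CPM, from 26 UMIs, and microglia-like nuclei had 1 UMI among 432 nuclei. Thinned to 1000 UMIs, 32.4% of astrocyte-like nuclei (30.5 to 34.3%) had a Slc6a11 UMI, against 1.68% of D1 MSN-like (1.31 to 2.14%) and 0.310% of microglia-like nuclei (0.0547 to 1.73%); unthinned, the shares were 50.1%, 9.50% and 0.231%.

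Both breakdown genes were found in neurons and astrocyte-like nuclei, and Aldh5a1 was near its MSN-like level in OPC-like nuclei too. Abat was highest in cluster 19 (322 ± 74.4 CPM) and astrocyte-like nuclei (306 ± 71.8 CPM), whose ranges of mean ± SD overlapped. In astrocyte-like nuclei it measured 442, 303 and 307 CPM in the females and 275, 231 and 279 CPM in the males. D1 and D2 MSN-like nuclei had 242.5 ± 39.1 and 235 ± 38.0 CPM, and OPC-like nuclei had 100 ± 15.7 CPM. Cluster 11, whose Gad1 level was among the highest, had 103 ± 17.7 CPM of Abat, under each of its values in D1 and D2 MSN-like nuclei. Glutamatergic-like (55.9 ± 9.21 CPM, n = 2), oligodendrocyte-like (40.1 ± 35.5 CPM, with 110 CPM in female pool 2 and at most 38.0 CPM elsewhere) and microglia-like nuclei (33.8 ± 13.3 CPM, n = 5) were lowest.
Aldh5a1 was highest in astrocyte-like nuclei too, at 139, 161 and 90.9 CPM in the females and 109, 112 and 162 CPM in the males. Cluster 10, led by Sema3c, Gbx1 and Lhx8, followed at 97.3 ± 11.5 CPM. From there to microglia-like nuclei (18.8 ± 12.7 CPM, n = 5) each class overlapped with its neighbour by mean ± SD, and D1 and D2 MSN-like nuclei stood at 64.6 ± 9.13 and 68.8 ± 10.7 CPM. Among other glia, OPC-like nuclei had 75.3 ± 25.4 CPM and oligodendrocyte-like nuclei 45.05 ± 10.2 CPM (n = 6 each).

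Differences between classes were tested with edgeR on the summed UMIs, with library as a block, and p-values were adjusted over all genes tested. A gene is called at an adjusted p under 0.05, and each difference is on the log2 scale with its SE. MSN-like stands for the mean of the D1 and D2 classes.

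D2 MSN-like nuclei had more Gad1 and Gad2 than D1 MSN-like nuclei. The Gad1 difference was 0.22 ± 0.03 (1.17-fold, adjusted p = 2.32e-06) and the Gad2 difference 0.10 ± 0.03 (adjusted p = 0.0148), both higher in 6 of 6 libraries. The 4 other members were not called, with differences between -0.03 (Abat, lower in 6 of 6 libraries) and 0.08 (Aldh5a1). So 2 of 6 members were called, where 16.1% of 11738 genes were. Gad1 lost its call with clusters at resolution 2 (0.11, adjusted p = 0.271). Gad2 lost its call there, with DESeq2 (adjusted p = 0.124), with a mitochondrial limit of 1% (adjusted p = 0.440), and when either of female pools 1 and 2 or either of male pools 2 and 3 was left out, where it ran from 0.08 to 0.11 over the 6 fits that leave out 1 library.

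Sst/Npy interneuron-like nuclei had about as much Gad1 as MSN-like nuclei but far less Gad2 and Abat. Gad2 was lower by 0.98 on the log2 scale (SE 0.09, 1.98-fold, adjusted p = 3.07e-13) and Abat was lower by 0.85 (SE 0.09, 1.80-fold, adjusted p = 2.20e-11), each in 6 of 6 libraries. Gad1 differed by -0.20 ± 0.08 (adjusted p = 0.0285), was lower in 4 of 6 libraries, and lost its call without female pool 3, male pool 1 or male pool 2 (-0.29 to -0.15 over the 6 fits). Slc32a1 (0.24), Slc6a11 (0.03) and Aldh5a1 (-0.05) were not called. That is 3 of 6 members, against 40.3% of 11978 genes.

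Cluster 14 had more Gad1 and Slc32a1 than MSN-like nuclei. Gad1 was 1.90-fold higher than in MSN-like nuclei (0.93 ± 0.07, adjusted p = 1.59e-11) and Slc32a1 1.77-fold higher (0.82 ± 0.10, adjusted p = 8.71e-08), each in 6 of 6 libraries. Slc32a1 measured 71.0, 132 and 37.2 CPM in the females and 54.6, 123 and 153 CPM in the males of this cluster, and every value lay above the D1 and D2 values of the same library. A mean of Slc32a1 above those of MSN-like nuclei was not particular to cluster 14. Several other unnamed clusters had it too, as listed with the levels above, and their differences were not tested. Slc6a11 differed by 0.44 ± 0.16 (adjusted p = 0.0263) at a level of 21.4 CPM, and without male pool 1 by 0.16 with no call. Gad2 (0.13 ± 0.06, adjusted p = 0.0585) was not called, and was called with DESeq2 (0.17, adjusted p = 0.00527), with nuclei of at least 1000 UMIs, with the mitochondrial limit of 1%, with more doublets removed and without each of 4 libraries. Abat and Aldh5a1 differed by -0.02 and 0.06. In all 3 of 6 members were called, against 49.8% of 12229 genes. The cluster was chosen after the data were seen, and these p-values do not account for that choice.

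Cholinergic-like nuclei, interneurons that release acetylcholine, were below MSN-like nuclei for all 6 members, in 6 of 6 libraries each. Gad1 was 4.27-fold lower (-2.09 ± 0.13, adjusted p = 2.59e-13), Slc32a1 4.24-fold lower (-2.08 ± 0.24, adjusted p = 2.73e-08) and Gad2 2.96-fold lower (-1.57 ± 0.09, adjusted p = 3.07e-14). The remainder were Slc6a11 (-0.98), Abat (-0.84) and Aldh5a1 (-0.49), with adjusted p between 1.64e-09 and 0.00323. These 6 of 6 stand beside 45.3% of 12033 genes called. The differences are relative to all UMIs. Cholinergic-like nuclei held more UMIs than MSN-like nuclei, at a median of 8966, so lower differences need not mean fewer UMIs per nucleus. The fit used a minimum of 10 nuclei per library, since female pool 2 held 16 and male pool 2 held 11. With the 4 libraries of at least 20 nuclei, 6 members were called as well. Gad1 in single libraries ran from 19.0 to 145 CPM, and its thinned share of 7.29% (4.66 to 11.2%) lay between those of glutamatergic-like and microglia-like nuclei. Gad2 stood higher, at 17.8% (13.5 to 23.1%), with an interval that overlaps that of microglia-like nuclei.

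**Figure D3:**
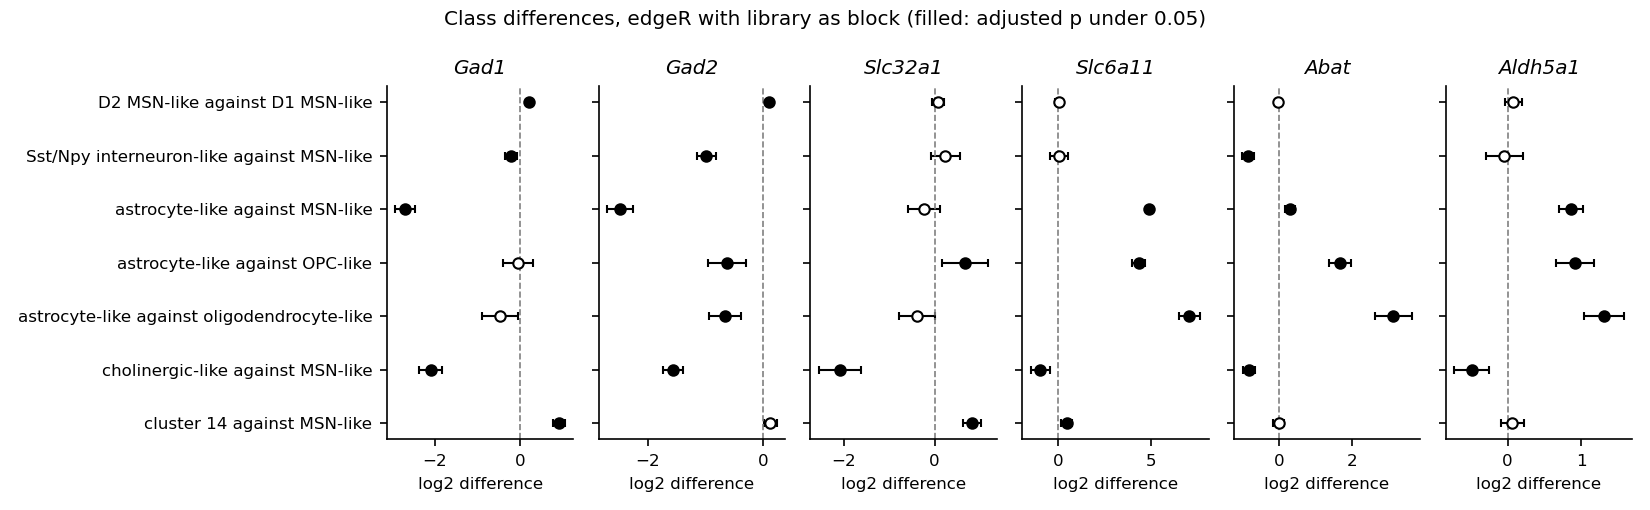
Difference of each gene between classes on the log2 scale (x axis, each panel with its own range) from edgeR with library as block; points are estimates, bars are 1.96 SE on either side, and filled points have an adjusted p under 0.05. Slc6a11 lies at 4.87, 4.33 and 7.07 in the 3 comparisons of astrocyte-like nuclei, and Gad1 and Gad2 part from each other in Sst/Npy interneuron-like nuclei and cluster 14.

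Astrocyte-like against MSN-like nuclei gave differences in both directions. Slc6a11 was 29.3-fold higher (4.87 ± 0.07, adjusted p = 5.03e-22), Aldh5a1 1.82-fold higher (0.86 ± 0.08, adjusted p = 7.35e-09) and Abat 1.23-fold higher (0.30 ± 0.08, adjusted p = 0.00155), each in 6 of 6 libraries. Gad1 was 6.46-fold lower (-2.69 ± 0.12, adjusted p = 1.89e-14) and Gad2 5.58-fold lower (-2.48 ± 0.12, adjusted p = 6.46e-14). Slc32a1 differed by -0.24 ± 0.18 with an adjusted p of 0.241; it was called lower with no filter on low counts (-0.35, adjusted p = 0.00978) and without female pool 3 (-0.49). The 5 of 6 members called compare with 70.2% of 12366 genes. The fold changes are relative to all UMIs of a nucleus, and MSN-like nuclei held more UMIs: per nucleus, Abat was 0.732 UMIs in astrocyte-like against 1.71 in D1 MSN-like nuclei.
Against other glia, astrocyte-like nuclei were higher in both breakdown genes and in uptake. Over OPC-like nuclei Slc6a11 was 20.1-fold higher (4.33 ± 0.17, adjusted p = 4.56e-13), Abat 3.18-fold (adjusted p = 3.23e-08) and Aldh5a1 1.89-fold (adjusted p = 9.92e-06). Gad2 was 1.55-fold lower (adjusted p = 0.00539), which was lost at the mitochondrial limit of 1% (adjusted p = 0.171). Slc32a1 was 1.59-fold higher (adjusted p = 0.0426) and lost its call under 5 of the other settings and without any of 5 single libraries. These were 5 of 6 members, beside 45.6% of 8042 genes. Over oligodendrocyte-like nuclei Slc6a11 was 134-fold higher (7.07 ± 0.29, adjusted p = 1.13e-09; 7.94 without female pool 3, on a level of 3.16 CPM in the lower class), Abat 8.70-fold (adjusted p = 4.32e-07) and Aldh5a1 2.47-fold (adjusted p = 3.22e-06), with Gad2 1.58-fold lower (adjusted p = 0.00132), so 4 of 6 were called beside 56.3% of 8730 genes. Gad1 (-0.46, adjusted p = 0.0929) was called with no low-count filter, at the mitochondrial limit of 1% and without male pool 3. The thinned Gad1 and Gad2 shares of these glial classes lay between those of glutamatergic-like and microglia-like nuclei, and the part of free RNA in these differences was not tested.

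The balance of both decarboxylase genes was compared directly as the log2 ratio of Gad2 UMIs over Gad1 UMIs within each library, with an exact sign-flip permutation test over 6 libraries (smallest p possible 0.031) and adjustment over 3 pairs. D1 MSN-like nuclei had ratios of 0.58, 0.49 and 0.36 in the females and 0.31, 0.63 and 0.49 in the males. Cluster 14 had -0.39, -0.89 and -0.17 in the female and -0.34, -0.30 and -0.44 in the male pools. No library of cluster 14 overlapped with one of the D1 MSN-like class.
Relative to MSN-like nuclei the ratio was lower by a mean of -0.94 (SD 0.43, range -1.47 to -0.33) in Sst/Npy interneuron-like nuclei, in 6 of 6 libraries (exact permutation p = 0.031, adjusted 0.047). In cluster 14 it was lower by a mean of -0.84 (SD 0.31, range -1.33 to -0.46), also in 6 of 6 libraries, with the same exact p and adjusted p. This cluster was chosen after the data were seen and had the highest mean of Gad1, the lower term of the ratio. The adjustment over 3 pairs does not cover that choice, so its p does not weigh as much as that of a planned pair. D2 against D1 MSN-like nuclei gave -0.11 (SD 0.09, lower in 5 of 6 libraries, exact permutation p = 0.0625, adjusted 0.0625), which misses the threshold. The remaining classes are given as description. Cluster 12 (0.71), cluster 9 (0.64), cluster 6 (0.62) and cluster 8 (0.60) lay above the D1 mean of 0.48, as did cholinergic-like nuclei (0.90, SD 0.43, over 4 libraries), and cluster 11 had a mean of -0.49 (SD 0.10) next to -0.42 (SD 0.24) for cluster 14 and -0.52 (SD 0.35) for Sst/Npy interneuron-like nuclei. Cluster 5 had a mean of -0.13 (SD 0.09), with all 6 libraries below 0, and clusters 10 and 19 had means of -0.10 and -0.03. Levels of the MSN marker list in clusters 5 and 19 were 76.7% and 120.5% of that in D1 and D2 MSN-like nuclei.

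**Figure D4:**
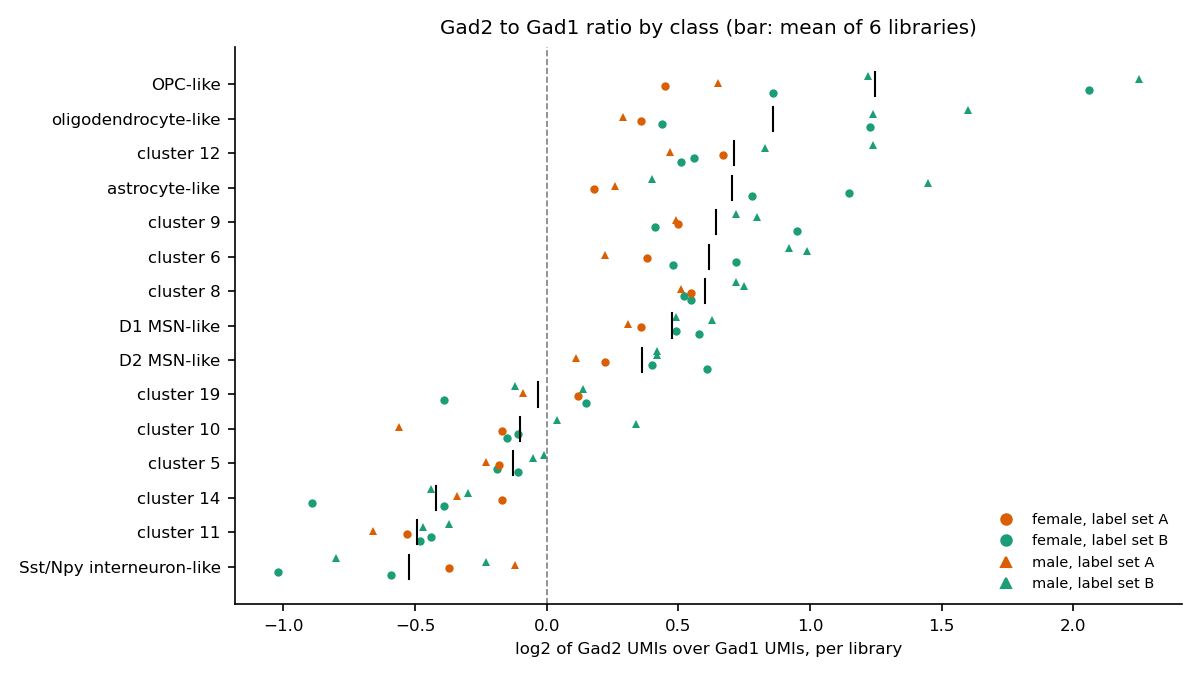
Log2 of Gad2 UMIs over Gad1 UMIs (x axis) in each library for the classes with at least 20 nuclei in all 6 libraries, with mixed clusters left out. Points are libraries (circles female, triangles male, colours the label sets), bars are means over 6 libraries, and the dashed line marks equal counts. All 6 libraries of the D1 and D2 MSN-like classes lie above 0. All 6 of cluster 5, cluster 11, cluster 14 and Sst/Npy interneuron-like nuclei lie below it.

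A list of 18 other genes of the GABA pathway, covering further transporters, glutamine and glutamate metabolism, the putrescine route and cofactor enzymes, was read in the same fits.
In astrocyte-like against MSN-like nuclei, 7 of 14 list genes tested were higher and 5 lower, where 70.2% of all genes were called, with a list median of 0.43 against 0.04 over all genes. Slc38a3, a glutamine transporter, was 134-fold higher (314 against 2.23 CPM, adjusted p = 1.83e-20). Maob, the oxidase of the putrescine route, was 102-fold higher (306 against 3.14 CPM, adjusted p = 1.66e-20). Glul, glutamine synthetase, was 17.2-fold higher (adjusted p = 4.11e-16), and Glud1, glutamate dehydrogenase, 10.1-fold higher (adjusted p = 5.31e-21). Among the 5 lower genes was Gls2, a glutaminase, at -1.17.
Against OPC-like nuclei 6 of 9 were higher and 1 lower (list median 0.82, all genes 0.06, 45.6% of all genes called), and against oligodendrocyte-like nuclei 6 of 10 were higher and 2 lower (0.89, all genes -0.10, 56.3% called). Slc38a2, another glutamine transporter, was 5.06-fold lower in astrocyte-like than in oligodendrocyte-like nuclei (45.8 against 203 CPM, adjusted p = 4.89e-07).
Gls2 rose in all 3 interneuron and cluster comparisons with MSN-like nuclei: 5.57-fold in cluster 14 (128 against 19.97 CPM, adjusted p = 2.99e-15), 4.21-fold in Sst/Npy interneuron-like nuclei (89.2 CPM, adjusted p = 5.10e-16) and 2.31-fold in cholinergic-like nuclei (49.1 CPM, adjusted p = 1.62e-05). Pdxk, which makes the vitamin cofactor of the decarboxylases and of GABA transaminase, was lower in the same 3 comparisons (-0.92, -1.10 and -1.51). The list counts were 6 higher and 1 lower of 14 in cluster 14 (median 0.42, all genes -0.05, 49.8% of all genes called), 3 and 1 of 13 in Sst/Npy interneuron-like nuclei (0.36, all genes 0.03, 40.3% called), and 4 and 3 of 13 in cholinergic-like nuclei (0.30, all genes 0.03, 45.3% called). Between D2 and D1 MSN-like nuclei 2 of 12 were higher, among them Slc38a2 (0.19, adjusted p = 0.0331), with a list median of 0.04 against 0.02 and 16.1% of all genes called. In cluster 14 and between D2 and D1 MSN-like nuclei the share of the list called was near that of all genes, and in Sst/Npy interneuron-like nuclei it was lower.

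The genes whose level over the 10 named classes was most like each member, by Pearson's r of mean log2(CPM + 1) among 6946 genes, are given as a description, with no p, since the classes share libraries and differ in depth. For Gad1 they were Tmem91 (r = 0.953), Synpr (0.941) and Olfm3 (0.919), and for Gad2 they were Gad1 (0.899), Akap5 (0.894) and Mppe1 (0.880). For Slc32a1, Aimp1 (0.920) and Mesd (0.894) were among them. Slc6a11 was most like Gpm6a (0.966), Ncoa1 (0.960) and Cpe (0.958). For Abat the genes were Csdc2 (0.928), Sdc2 (0.927) and Apoo (0.918), and for Aldh5a1 they were Lrig1 (0.946), Macrod1 (0.929) and Dmpk (0.927).

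Female and male pools were compared with 3 libraries each and the label set as a term. No member was called by edgeR in any of the 5 fits, and none by DESeq2. The genes called made up 0.0433% of 16181 over all nuclei, 0.0585% of 11964 in D1 MSN-like, 0.0600% of 11663 in D2 MSN-like, 0.138% of 5068 in Sst/Npy interneuron-like and 0.0679% of 8839 in astrocyte-like nuclei. At an unadjusted p under 0.05 there was 1 member in each of the D1 MSN-like, D2 MSN-like and astrocyte-like fits, which was Abat each time, and 0 in the other fits. Over all genes, 871 of 11964, 739 of 11663 and 429 of 8839 lay under that p in the same 3 fits. Slc6a11 did not pass the low-count filter in Sst/Npy interneuron-like nuclei, so 5 members were tested there.
Abat in D1 MSN-like nuclei was 264, 280 and 269 CPM in the female and 256, 195 and 192 CPM in the male pools, so the groups did not overlap. The female minus male difference was 0.37 ± 0.13 (SE; interval 0.13 to 0.62, unadjusted p = 0.0127, adjusted p = 0.672). In D2 MSN-like nuclei it was 0.34 ± 0.13 (adjusted p = 0.764) and in astrocyte-like nuclei 0.40 ± 0.19 (adjusted p = 0.944), where the groups did not overlap either.
Within set A, with 1 pool of each sex, the Abat difference was 0.07, 0.01 and 0.16 in D1 MSN-like, D2 MSN-like and astrocyte-like nuclei, and within set B, with 2 of each, 0.49, 0.49 and 0.55. Over all nuclei it was -0.09 within set A and 0.43 within set B.
For the synthesis genes in D1 MSN-like nuclei, the intervals ran from -0.11 to 0.33 (Gad1) and from -0.12 to 0.35 (Gad2). Slc32a1 was less precise, with -0.32 and an interval of -0.86 to 0.21. For Slc6a11 in astrocyte-like nuclei the difference was 0.07 with an interval of -0.36 to 0.51. Aldh5a1 in Sst/Npy interneuron-like nuclei had 59.7 CPM in female and 77.2 CPM in male pools, a difference of -0.43 with an interval of -1.04 to 0.18. None of the 18 pathway genes was called between the sexes by edgeR, with 6 to 16 of them tested per fit.

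**Figure D5:**
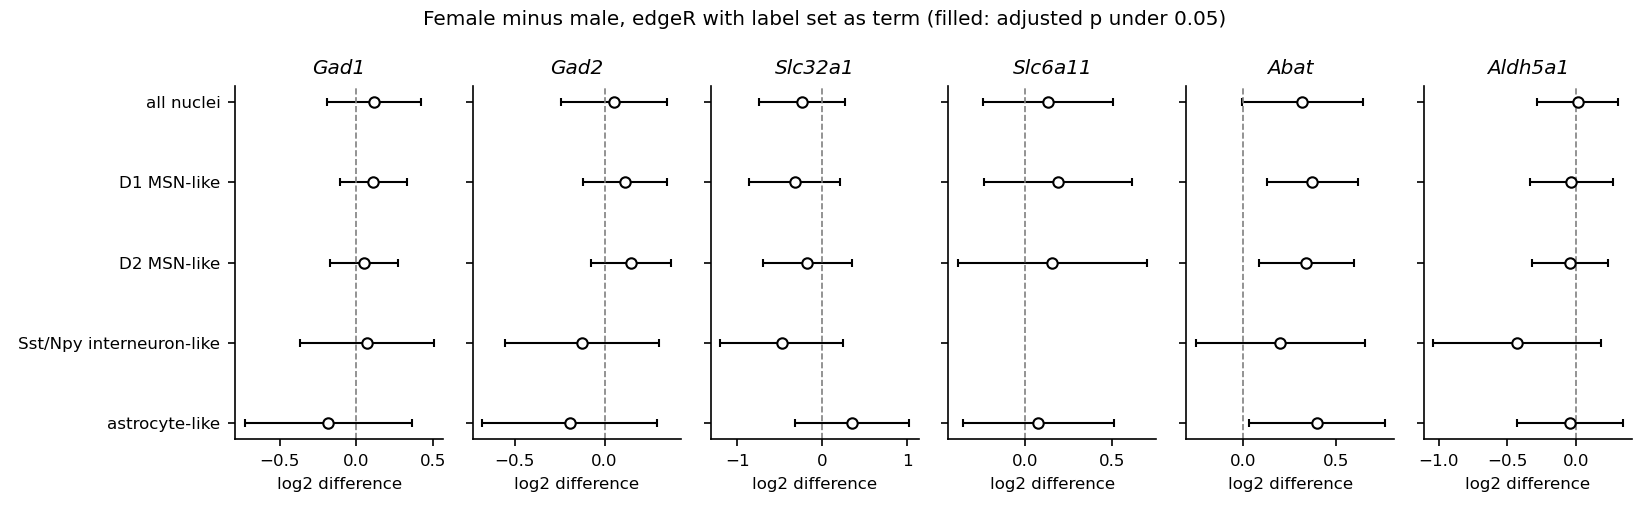
Female minus male difference of each gene on the log2 scale (x axis, each panel with its own range) from edgeR with the label set as a term, for all nuclei and 4 classes; points are estimates, bars are 1.96 SE on either side, and all points are open because none had an adjusted p under 0.05. Abat lies above 0 in all 5 fits, between 0.20 and 0.40, and Slc6a11 was not tested in Sst/Npy interneuron-like nuclei.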

How the data were processed

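Single nuclei of the nucleus accumbens shell were profiled with 10x 3′ v3.1 chemistry, per the labels' protocols. The deposited values are UMI counts per gene and nucleus, made by the authors with Cell Ranger 4.0.0, per the file headers, on rn6, per the submitters' processing notes. Strand settings are not given in the sources used here.

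Nuclei with at least 500 UMIs, 300 genes and under 5% mitochondrial UMIs were kept. Doublets were removed as the highest-scoring share of each library, at 0.8% per 1000 barcodes (2.84% to 13.4%). Nuclei were clustered in scanpy 1.11.5 (3000 variable genes, 30 components, Leiden resolution 1) without 43 genes, the members and pathway list among them. Clusters were named from at least 3 markers, except cluster 12, which met this rule and was left without a name. Those of other types with at least 40% of the MSN list's level were called mixed, a limit set after the data were seen. UMI counts were summed per library and class and tested with edgeR 4.0.16 (quasi-likelihood, TMM, Benjamini-Hochberg over all genes), with DESeq2 1.42.0 as an alternative. Class fits used libraries with at least 20 nuclei in each class, and 10 for cholinergic-like nuclei, the latter chosen after the data were seen. SE is the log2 difference over the square root of F, and intervals are 1.96 SE. The edgeR fit was tested on simulated data.

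The members and lists were chosen with earlier results of these data known. All 6 members are named, with pathway genes that were called and the 3 genes most like each member; a few genes that this rule names are not reported here. Same-numbered pools were not paired: their deviations correlated at -0.77, 0.26 and -0.63 over 16181 genes.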

Additional observations from a re-analysis of the deposited data

How the results depend on the processing

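Of the member differences between classes under all settings, 444 of 504 kept their direction and their side of the threshold, as did 347 of 371 between the sexes. Cluster 14, its ratio and the cholinergic minimum were chosen after the data were seen, and the planned comparisons of Pvalb/Pthlh interneuron-like nuclei were not run because that class could not be named. The cause of each change below was not tested unless given.

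Genes called between the sexes over all nuclei (7) numbered 13 with DESeq2, 13 with no low-count filter and 3 to 15 without single libraries. With no low-count filter they numbered 86 in D1 MSN-like (7), 56 in D2 MSN-like (7) and 25 in astrocyte-like nuclei (6). With a mitochondrial limit of 1% they numbered 12 in D2 MSN-like and 13 in astrocyte-like nuclei, and the Sst/Npy interneuron-like fit could not be made, as too few nuclei were left. Without the label set term they numbered 4 in Sst/Npy interneuron-like nuclei (7). Without single libraries they ran from 3 to 12 there and from 6 to 23 in astrocyte-like nuclei. With the replicate number as a block, they numbered 3 over all nuclei, 2 in D1 MSN-like, 3 in D2 MSN-like and 0 in Sst/Npy interneuron-like nuclei; the replicate block also turned Slc6a11 in astrocyte-like nuclei to -0.02. The numbers do not pair the pools.

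Genes called between D2 and D1 MSN-like nuclei (1884) numbered 1086 with DESeq2 and 1057 at resolution 2. Members called there (2) numbered 1 with DESeq2, 1 at the mitochondrial limit of 1%, 0 at resolution 2 and 1 to 2 without single libraries. At that mitochondrial limit members called were 5 in cluster 14 (3) and 3 for astrocyte-like against OPC-like nuclei (5). The Gad2 to Gad1 ratio then differed by -0.51 (Sst/Npy interneuron-like) and -0.52 (cluster 14) over 2 libraries, too few for a call. Without 1 library the smallest exact p is 0.0625.

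Some member differences changed sign. At the mitochondrial limit of 1%, Gad2 over all nuclei between the sexes was -0.07, Gad1 and Aldh5a1 in astrocyte-like nuclei 0.24 and 0.04, Slc6a11 in Sst/Npy interneuron-like against MSN-like nuclei -0.44, and Slc32a1 in astrocyte-like against MSN-like nuclei 0.15. With no low-count filter, Slc6a11 was -0.0015 for D2 against D1 and -0.08 for Sst/Npy interneuron-like against MSN-like nuclei. At resolution 2, D2 against D1 gave -0.11 for Slc6a11 and -0.13 for Aldh5a1. Abat in cluster 14 was 0.04 with DESeq2, 0.04 with at least 1000 UMIs per nucleus and 0.06 with 2 times the doublets removed.

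Without single libraries, differences between the sexes that changed sign ran as follows. Over all nuclei Slc6a11 ran from -0.05 to 0.34, Aldh5a1 from -0.12 to 0.13 and Gad2 from -0.01 to 0.13. In D1 MSN-like nuclei Aldh5a1 ran from -0.16 to 0.12. In D2 MSN-like nuclei Slc6a11 ran from -0.18 to 0.39, Slc32a1 from -0.54 to 0.03 and Aldh5a1 from -0.11 to 0.03. In Sst/Npy interneuron-like nuclei Gad1 ran from -0.14 to 0.29. In astrocyte-like nuclei Slc6a11 ran from -0.28 to 0.33, Gad1 from -0.60 to 0.10, Aldh5a1 from -0.21 to 0.08 and Gad2 from -0.45 to 0.15. Between classes, Slc6a11 ran from -0.06 to 0.05 (D2 against D1) and from -0.19 to 0.22 (Sst/Npy interneuron-like), Abat from -0.01 to 0.14 (cluster 14) and Gad1 from -0.19 to 0.06 (astrocyte-like against OPC-like).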
